A study of Homo sapiens with 6 samples.

Results

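The genome-wide sites of HAND2 were compared with those of MEIS2 in SK-N-BE(2), a human cell line established from a neuroblastoma. All 4 libraries with peak lists for these factors were used, of 6 libraries in the series, and together they held 87360 of the 118064 peaks on chromosomes 1 to 22 and X. They were chosen by antibody: 2 libraries made with an antibody to HAND2 and 2 made with an antibody to MEIS2, in the same untreated line as far as the labels say. The assay was CUT&Tag: a transposase, held at the target protein by an antibody, cuts and tags the DNA beside it. An IgG library with a non-specific antibody served as the control.

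HAND2 belongs to the basic helix-loop-helix (bHLH) family and is needed for sympathetic neurons, the lineage in which neuroblastoma arises. Dimers of bHLH factors bind E-boxes, short sequences of the form CANNTG. MEIS2 is a homeodomain factor of the TALE class, which binds DNA alone or with PBX and HOX partners at sites around the core TGACAG. Both belong to the group of regulators that maintain the adrenergic state of neuroblastoma cells, in which factors of this kind often occupy the same enhancers.

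HAND2 replicates 1 and 2 gave 30410 and 33484 peaks, and MEIS2 replicates 1 and 2 gave 9595 and 13871. The median number of fragments piled up at a summit was 34 and 41 for HAND2 against 22 and 13 for MEIS2, so a missing MEIS2 peak does not show that the factor was absent from the site. Peaks were called separately in each library and against the same IgG library, so the 4 lists share their background. All 13871 peak identifiers used from MEIS2 replicate 2 carry the word Flag, a common epitope tag, while the labels give both MEIS2 libraries the same MEIS2 antibody; what was pulled down in that library was not tested, and every result is given for each MEIS2 replicate apart. Whether replicates were separate cultures is not in the labels, so their spread may be technical. No test was made: peaks of a library are not replicates, and the folds of lists called separately are not on a common scale. Intervals are exact 95% binomial or Poisson intervals and cover counting error only.

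Few promoters held a summit of all 4 libraries. Those whose worst rank of fold over the 4 lists was best are printed here, with the sequence around the summits. RefSeq (GRCh38.p14) gave 34961 windows that run from 250 bases before to 50 after a gene start. A summit of both HAND2 libraries and of at least 1 MEIS2 library fell in windows of 187 genes, of which 8 had both MEIS2 libraries, 169 replicate 1 only and 10 replicate 2 only. In the 6 windows below, each 5′ to 3′ on its gene's strand, capitals mark every match on either strand to CANNTG (the E-box, which includes CATCTG, the form often given for HAND factors), TGACAG (the TALE core) or TGATTGA (a PBX-TALE form).
OLFML3 (chr1:113979224-113979523, plus strand): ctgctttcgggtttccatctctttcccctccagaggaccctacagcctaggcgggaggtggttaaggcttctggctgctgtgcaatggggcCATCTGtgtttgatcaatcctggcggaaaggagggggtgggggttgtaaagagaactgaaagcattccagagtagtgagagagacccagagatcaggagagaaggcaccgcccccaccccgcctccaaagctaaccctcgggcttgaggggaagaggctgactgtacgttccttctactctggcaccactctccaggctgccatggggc
LOC105371094 (chr16:14486752-14487051, plus strand): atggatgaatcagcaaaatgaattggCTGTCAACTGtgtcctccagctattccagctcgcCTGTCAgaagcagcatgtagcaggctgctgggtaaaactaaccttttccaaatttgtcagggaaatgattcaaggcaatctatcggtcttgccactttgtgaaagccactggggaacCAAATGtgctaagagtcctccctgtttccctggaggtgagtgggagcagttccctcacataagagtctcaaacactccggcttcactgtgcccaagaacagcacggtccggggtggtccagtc
ENO3 (chr17:4950302-4950601, plus strand): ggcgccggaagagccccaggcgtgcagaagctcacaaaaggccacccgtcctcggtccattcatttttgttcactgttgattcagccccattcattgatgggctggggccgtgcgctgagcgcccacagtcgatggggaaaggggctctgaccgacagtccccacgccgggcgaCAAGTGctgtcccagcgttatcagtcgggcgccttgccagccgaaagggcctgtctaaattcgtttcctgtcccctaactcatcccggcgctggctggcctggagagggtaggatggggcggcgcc
LOC105370171 (chr13:40063360-40063659, plus strand): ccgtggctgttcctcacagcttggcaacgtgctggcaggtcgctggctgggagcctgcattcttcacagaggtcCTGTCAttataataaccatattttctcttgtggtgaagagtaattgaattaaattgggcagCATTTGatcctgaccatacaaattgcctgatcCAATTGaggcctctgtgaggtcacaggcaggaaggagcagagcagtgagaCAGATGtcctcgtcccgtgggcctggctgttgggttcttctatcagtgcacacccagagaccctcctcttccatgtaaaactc
LOC101928419 (chr5:56123851-56124150, plus strand): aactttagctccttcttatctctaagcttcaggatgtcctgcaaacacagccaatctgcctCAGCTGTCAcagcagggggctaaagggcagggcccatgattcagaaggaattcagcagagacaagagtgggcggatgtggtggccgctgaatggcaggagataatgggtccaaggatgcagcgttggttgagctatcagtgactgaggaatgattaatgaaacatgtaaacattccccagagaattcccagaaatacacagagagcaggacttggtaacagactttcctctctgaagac
CYTH1 (chr17:78716986-78717285, minus strand): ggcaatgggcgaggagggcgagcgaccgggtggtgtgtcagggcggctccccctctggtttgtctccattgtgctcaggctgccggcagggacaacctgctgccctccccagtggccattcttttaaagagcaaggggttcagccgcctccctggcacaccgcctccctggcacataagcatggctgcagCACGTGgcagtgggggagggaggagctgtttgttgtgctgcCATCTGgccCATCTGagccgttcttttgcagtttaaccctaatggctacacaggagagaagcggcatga
LOC101928419, a gene without a standard symbol, had the strongest of these windows in 3 lists, with folds of 31.2 and 26.4 for HAND2, 5.02 for MEIS2 replicate 1 and 26.7 for MEIS2 replicate 2. Its window held 1 E-box and 1 TALE core, which overlap. OLFML3, which encodes a secreted olfactomedin-like protein, had folds of 17.9, 18.0, 13.1 and 10.3 in the same order, with all 4 summits 183 to 220 bases before the start and 1 E-box of the form CATCTG. ENO3, the muscle enolase gene, had the E-box only, and CYTH1, which encodes an exchange factor for ARF proteins, had 3 E-boxes and no TALE core. Summits did not coincide in every window. In the same order they lay at -172, 37, 42 and -66 bases from the start in ENO3. In CYTH1 they lay at -154, -220, 31 and -91. The worst rank of a window within any list ran from 16.5% from the top at OLFML3 to 69.7% at CYTH1, so most were not among the strongest peaks of every list.

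The TALE core was held by 15.8% of all windows (95% interval 15.4 to 16.1%, n = 34961). Among windows with a MEIS2 replicate 1 summit it was held by 15.5% (13.1 to 18.2%, n = 800), a share whose interval includes the background. For MEIS2 replicate 2 it was held by 28.0% (20.3 to 36.7%, n = 125), with an interval above the share in all windows. Where both HAND2 libraries had a summit as well, the shares were 11% (6.88 to 16.5%, n = 181) for replicate 1 and 50% (26.0 to 74.0%, n = 18) for replicate 2. In MEIS2 replicate 2 windows without HAND2 it was held by 22.4% (14.0 to 32.7%, n = 85), an interval that includes the share in all windows. The interval thus lay above that share over all MEIS2 replicate 2 windows and in the few with HAND2, but not in those without HAND2 nor for replicate 1. Base composition moved with this difference: median GC was 65.2% in windows of replicate 1, 48.0% in those of replicate 2 and 58.7% in all windows, and its part in the result was not tested. E-boxes were held by 68.7% of all windows, 55.8% of those with a MEIS2 replicate 1 summit and 80% of those with a MEIS2 replicate 2 summit. Where both HAND2 libraries had a summit, E-boxes were held by 63.6% of windows (60.1 to 67.0%, n = 791), below the share in all windows. The form CATCTG was held by 15.4% of these windows (13.0 to 18.1%), against 14.7% of all windows. HAND2 promoter windows thus held no excess of either. MEIS2 replicate 2 windows held CATCTG at 28.8% (21.1 to 37.6%, n = 125), so their higher share was not particular to the TALE core. In those without HAND2 it was held by 27.1% (18.0 to 37.8%, n = 85), an interval above the share in all windows. MEIS2 replicate 1 windows held it at 11.1% (9.03 to 13.5%, n = 800). TGATTGA was rare in each set, at 2.08% of all windows, 3% for replicate 1 and 0.800% for replicate 2. In MEIS2 replicate 1 windows without HAND2 it was held by 4.39% (2.66 to 6.77%, n = 433), an interval above the share in all windows. In those with both HAND2 libraries it was held by 2.21% (0.605 to 5.56%, n = 181).

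What held for both MEIS2 libraries was that overlap fell from the strongest HAND2 peaks to those of middle rank and that fold ranks went together. What held for MEIS2 replicate 1 only was that most of its peaks met HAND2, with close summits, and that its HAND2 sites were frequent at gene ends. What held for MEIS2 replicate 2 only was that most of its peaks lay outside HAND2 sites, with wide summit distances where they did meet. Few of its peaks lay at gene ends, 2.34% against 18.8% in MEIS2 replicate 1. The values follow for each pair of libraries.

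MEIS2 replicate 1 lay mostly within HAND2 sites, and MEIS2 replicate 2 mostly outside them. Of MEIS2 replicate 1 peaks, 80.8% overlapped a HAND2 replicate 1 peak by at least 1 bp (80 to 81.6%) and 81.5% a HAND2 replicate 2 peak (80.8 to 82.3%). Of MEIS2 replicate 2 peaks, 33.8% (33.0 to 34.6%) overlapped HAND2 replicate 1 and 27.7% (26.9 to 28.4%) HAND2 replicate 2. The HAND2 libraries thus gave like values for each MEIS2 library, and the MEIS2 libraries stood apart by far more than the HAND2 libraries did. Beside these values, 78.5% of HAND2 replicate 1 peaks overlapped HAND2 replicate 2 and 24.6% of MEIS2 replicate 1 peaks overlapped MEIS2 replicate 2, so MEIS2 replicate 1 shared more of its list with either HAND2 library than with its own replicate. With at least 50% of both peaks covered, the shares overlapping HAND2 were 48.9 and 49.8% for MEIS2 replicate 1 and 16.5 and 12% for replicate 2.

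Read from the HAND2 side, the order of the MEIS2 libraries was the same over whole lists but the gap was smaller. MEIS2 replicate 1 overlapped 24.8% of HAND2 replicate 1 peaks and 22.9% of HAND2 replicate 2 peaks, and MEIS2 replicate 2 overlapped 15.6 and 11.7%. The lists differ in length, and with the 9000 peaks of highest fold from every list the shares of MEIS2 peaks were 46.5 and 46.4% for replicate 1 and 23.6 and 18.3% for replicate 2. The larger overlap of MEIS2 replicate 1 was therefore present at equal list length.

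**Figure D1:**
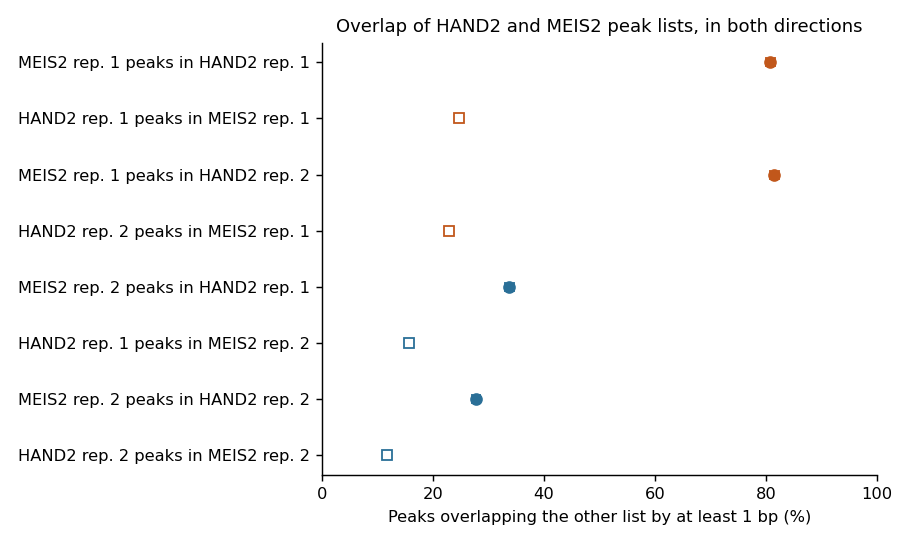
Share of peaks (x axis, %) in each list that overlapped a peak of the other factor by at least 1 bp, for the 4 library pairs in both directions; filled circles are MEIS2 peaks, open squares are HAND2 peaks, orange is MEIS2 replicate 1, blue is MEIS2 replicate 2, and the 95% binomial intervals are about the size of the markers. MEIS2 replicate 1 sits at 80.8 and 81.5%, and MEIS2 replicate 2 at 33.8 and 27.7%.

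Every MEIS2 peak was next placed by whether it met both HAND2 libraries. In MEIS2 replicate 1, 7278 peaks (75.9%) met both, 476 met HAND2 replicate 1 only, 546 met HAND2 replicate 2 only and 1295 (13.5%) met neither. In MEIS2 replicate 2, 3603 peaks (26.0%) met both, 1081 and 237 met 1 of them, and 8950 (64.5%) met neither. The MEIS2 replicate 1 peaks that met neither library lay at a gene end in 31.0% of cases, against 15.2% of those that met both. A gene end means that the summit lies within 1 kb of either end of a protein-coding gene. The order was the reverse in MEIS2 replicate 2, with 1.55% of peaks that met neither at a gene end against 3.97% of those that met both.

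Strength went with overlap in both MEIS2 libraries when HAND2 peaks were ranked. Fold is the authors' enrichment, fragments at the summit over those the background predicts, and it was used only to rank peaks within their own list, in 10 deciles of which the first is the strongest. In the first decile of HAND2 replicate 1, 65.7% of peaks overlapped MEIS2 replicate 1 and 51.6% MEIS2 replicate 2, against 16.2 and 12.7% in the fifth decile and 19.7 and 2.01% in the weakest. In HAND2 replicate 2 the corresponding shares were 63.3 and 41.5% in the first decile, 16.5 and 9.45% in the fifth and 14.7 and 1.67% in the weakest. The fall from the first decile to the fifth thus held in all 4 pairs. From there on MEIS2 replicate 1 stayed near its level and MEIS2 replicate 2 fell further.

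Ranked by their own fold, the MEIS2 lists differed from each other. The first decile of MEIS2 replicate 1 overlapped HAND2 replicate 1 at 92.2% and HAND2 replicate 2 at 91.5%, and the last decile at 70.5 and 80.5%. In MEIS2 replicate 2 the first decile overlapped at 46.9 and 38.0%, the ninth at 28.1 and 23.9% and the last at 52.8 and 49.0%. The peaks of lowest fold in MEIS2 replicate 2 therefore met HAND2 more often than those of highest fold. Local background moved with this rise, counted in IgG fragments, that is, in units of what 1 fragment of the IgG library adds to the background of a list. Its median was 6 IgG fragments at summits of that last decile, against 2.21 in the ninth and 2.08 in the first, and its part was not tested. Fold is taken over the background, so a rank by fold is not independent of it. Median pile-up was 11 fragments in the last decile and 8 in the ninth, so the lowest fold was not the lowest pile-up.

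**Figure D2:**
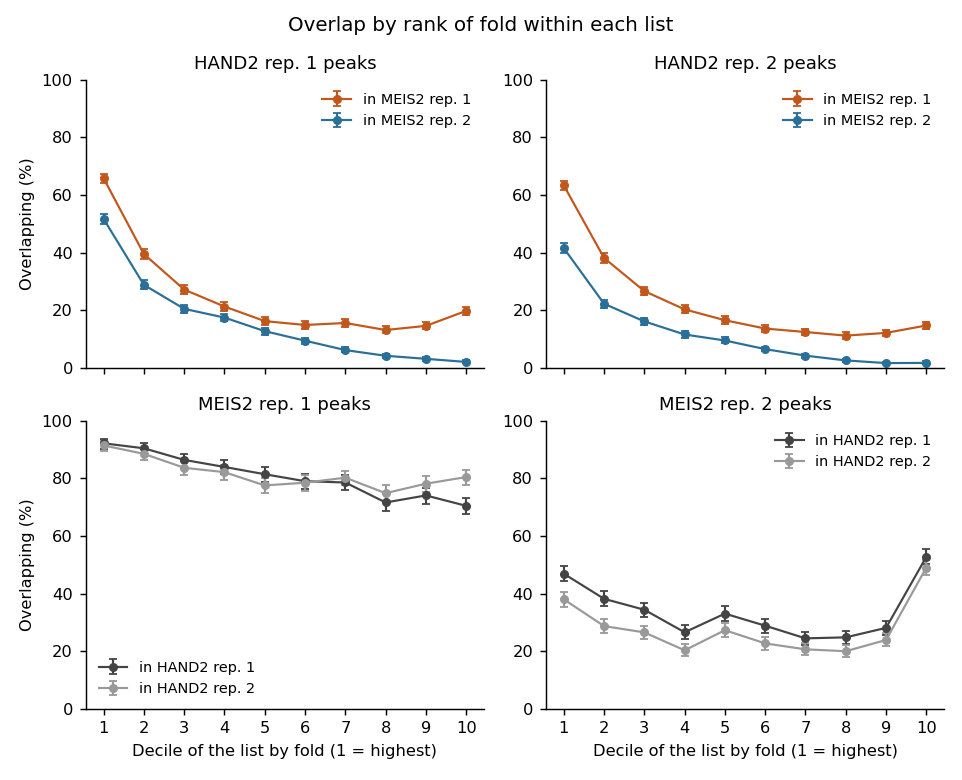
Share of peaks overlapping the other factor (y axis, %) by decile of the list ranked by fold (x axis, 1 is the highest fold), 1 panel per list; points are shares, bars are 95% binomial intervals and colours name the list overlapped. HAND2 panels fall from 65.7 and 51.6% (replicate 1) and 63.3 and 41.5% (replicate 2), while the MEIS2 replicate 2 panel rises again to 52.8 and 49.0% in the last decile.

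Where peaks of the factors overlapped, the fold ranks rose together in all 4 pairs. Spearman's rho was 0.55 (n = 7754 peaks) and 0.51 (n = 7824) for MEIS2 replicate 1 with HAND2 replicates 1 and 2. It was 0.24 (n = 4684) and 0.16 (n = 3840) for MEIS2 replicate 2. Within factors it was 0.85 for HAND2 and 0.25 for MEIS2; the points are peaks that share the IgG background, so these values describe the lists and carry no p-value. Of the 960 strongest MEIS2 replicate 1 peaks, 632 (65.8%) met a peak in the first decile of HAND2 replicate 1 and 595 (62.0%) that of HAND2 replicate 2. Of the 1371 strongest MEIS2 replicate 2 peaks, 330 (24.1%) and 240 (17.5%) did. The corresponding shares of the first HAND2 deciles were 20.6 and 17.7% for MEIS2 replicate 1 and 11 and 7.35% for MEIS2 replicate 2.

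Summits of the factors lay close together for MEIS2 replicate 1 only. The median distance between summits of overlapping peaks was 70 bp from MEIS2 replicate 1 to HAND2 replicate 1 (quartiles 20 and 193) and 77 bp to HAND2 replicate 2 (24 and 207). From MEIS2 replicate 2 it was 187 bp (79 and 399) and 208 bp (87 and 433). The distances between the HAND2 replicates (50 bp) and between the MEIS2 replicates (166.5 bp) place MEIS2 replicate 1 near the HAND2 libraries and MEIS2 replicate 2 apart from the other 3. Summits lay within 100 bp of each other in 59.7 and 57.3% of overlapping peaks for MEIS2 replicate 1, and in 30.9 and 28.2% for replicate 2. Summits at the very same base numbered 305 and 259 for MEIS2 replicate 1 and 29 and 33 for MEIS2 replicate 2, and identical intervals numbered 6, 13, 3 and 3, so the lists were not copies.

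The difference in distance was also present at the same sites. In the 2040 regions that held a peak of all 4 libraries, the median distance was 46 and 59 bp from MEIS2 replicate 1 to HAND2 replicates 1 and 2, and 177 and 207.5 bp from MEIS2 replicate 2. All 4 summits fell within 100 bp in 327 of these regions (16%) and within 200 bp in 784 (38.4%). Rank correlations there were 0.54 and 0.49 for MEIS2 replicate 1 and 0.35 and 0.18 for MEIS2 replicate 2. Median pile-up in these regions was 22 fragments for MEIS2 replicate 1 and 20 for MEIS2 replicate 2. The part of pile-up or of library depth in the distances was not tested.

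**Figure D3:**
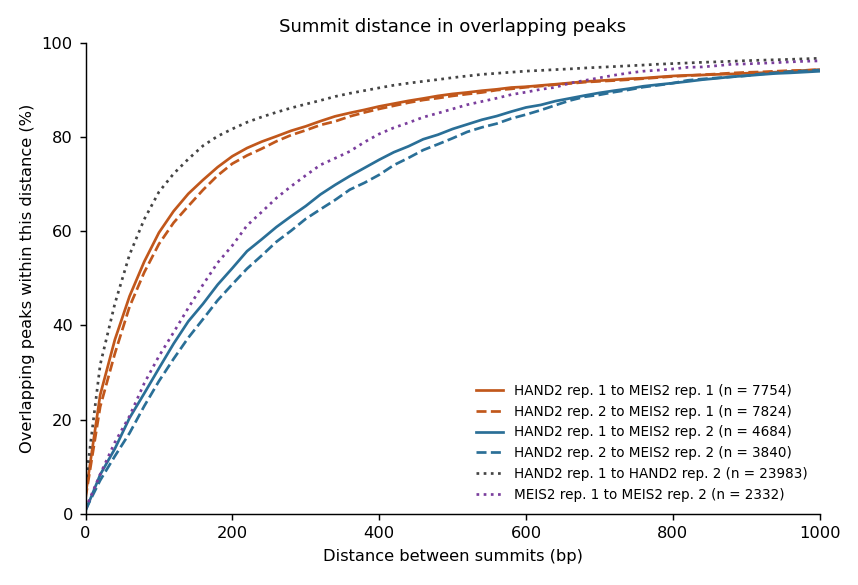
Cumulative share of overlapping peaks (y axis, %) with summits within a given distance (x axis, bp); orange lines are MEIS2 replicate 1 and blue lines MEIS2 replicate 2, solid to HAND2 replicate 1 and dashed to HAND2 replicate 2, and dotted lines are the replicates of 1 factor. At 100 bp the MEIS2 replicate 1 lines stand at 59.7 and 57.3%, and the MEIS2 replicate 2 lines at 30.9 and 28.2%.

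The 23304 HAND2 regions, spans of merged peaks in which each HAND2 library had at least 1, were then divided by MEIS2. Both MEIS2 libraries had a peak in 2040 of them (8.75%), replicate 1 only in 4983 (21.4%), replicate 2 only in 1676 (7.19%) and neither in 14605 (62.7%). Regions with both MEIS2 libraries were the strongest HAND2 regions, with a median rank of 8.25% from the top of HAND2 replicate 1 and 9.22% from the top of HAND2 replicate 2. The median ranks were 36.0 and 28.5% with MEIS2 replicate 1 only, 22.9 and 24.8% with MEIS2 replicate 2 only, and 57.2 and 46.5% with no MEIS2. Among the 1139 regions in the top 5% of both HAND2 lists, 52.2% had both MEIS2 libraries and 12.1% none, and among the 5180 whose worse rank was in the last 20%, 1.49% had both and 78.2% none. Width moved with this order, with a median of 1441.5 bp for regions with both and 892 bp for those with none, and its part was not tested.

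Position relative to genes separated the regions of MEIS2 replicate 1 only from the rest. By the summit of HAND2 replicate 1, 19.4% of them lay at a gene end (18.3 to 20.6%), against 5.39% of regions with both MEIS2 libraries (4.45 to 6.46%), 2.74% with MEIS2 replicate 2 only (2.02 to 3.64%) and 11.9% with none (11.4 to 12.4%). By the summit of HAND2 replicate 2 the shares were 19.6, 5.59, 2.92 and 12.1%. The median distance from the HAND2 replicate 2 summit to a gene end was 18821 bp with MEIS2 replicate 1 only and 48513.5 bp with both, so the regions shared by all 4 libraries were mostly far from genes' ends.

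Background moved with these classes. The median IgG level at the HAND2 replicate 2 summit was 14.0 fragments with MEIS2 replicate 1 only, 6 with both, 4 with MEIS2 replicate 2 only and 8.24 with none. From regions of under 4 IgG fragments (n = 5684) to those of 30 or more (n = 1487), the share with MEIS2 replicate 1 only went from 11.9 to 48.3% and that with MEIS2 replicate 2 only from 16.5 to 0.672%. The MEIS2 libraries thus took opposite courses along the IgG signal, which is itself high at gene ends: HAND2 regions there had a median of 19.0 IgG fragments, against 7.66 away from them. By these counts the part of gene ends and that of IgG signal cannot be told apart. Within the gene-end regions of HAND2 rank 10 to 50%, MEIS2 replicate 1 only made up 36.6% (n = 429), and away from gene ends at the same ranks 23.4% (n = 8732).

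**Figure D4:**
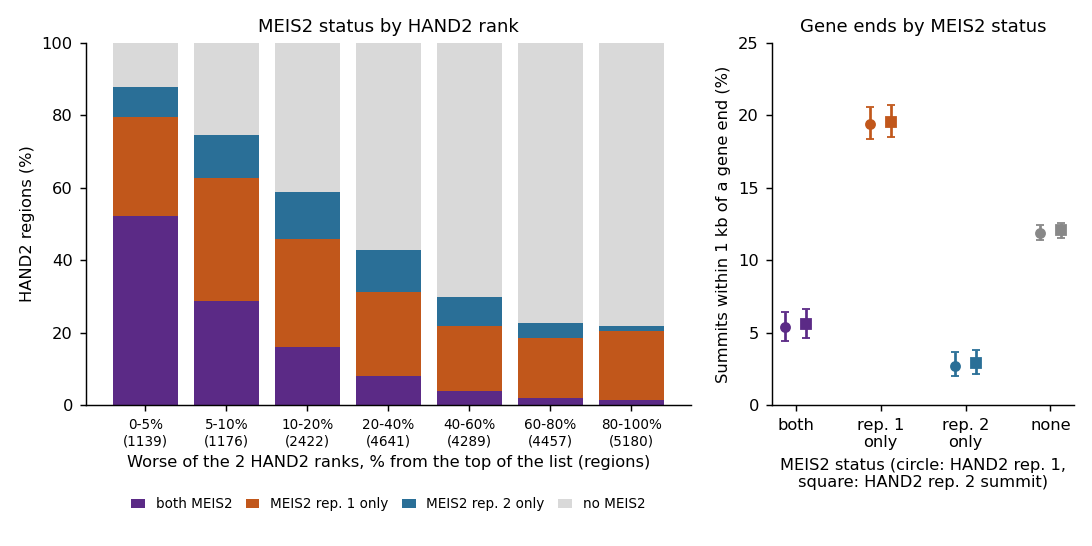
Left, HAND2 regions (y axis, %) with both MEIS2 libraries, 1 of them or none, by the worse of the 2 HAND2 ranks (x axis, % from the top of the list, number of regions in brackets); right, share of regions whose HAND2 summit lies within 1 kb of a gene end, by MEIS2 status, with 95% binomial intervals. Regions with both MEIS2 libraries make up 52.2% of the first bar and 1.49% of the last, and MEIS2 replicate 1 only stands highest at gene ends (19.4 and 19.6%).

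The same split appeared peak by peak. HAND2 replicate 1 peaks overlapped MEIS2 replicate 1 at 34.3% at gene ends and 23.6% away from them, and HAND2 replicate 2 peaks at 29.0 and 21.9%. For MEIS2 replicate 2 the order was the opposite, with 5.40% at gene ends and 16.8% away for HAND2 replicate 1, and 3.62 and 13.0% for HAND2 replicate 2. MEIS2 replicate 1 peaks at gene ends overlapped HAND2 less often than its peaks elsewhere (63.8 against 84.8% for HAND2 replicate 1, and 75.3 against 83.0% for HAND2 replicate 2). The few MEIS2 replicate 2 peaks at gene ends (n = 324) overlapped it more often (52.2 against 33.3%, and 49.1 against 27.2%).

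In MEIS2 replicate 2 the overlap also moved with the background of its peaks. A peak caller gives every region a lowest possible background, and 58.0% of MEIS2 replicate 2 peaks stood there, against 10.6% in MEIS2 replicate 1 and 14.1 and 6.42% in the HAND2 lists. At that lowest background 19.0 and 12.4% of MEIS2 replicate 2 peaks overlapped HAND2 replicates 1 and 2 (n = 8044), and above it, under 30 IgG fragments, 53.9 and 48.6% did (n = 5715). For MEIS2 replicate 1 the shares at the lowest background were 77.2 and 61.0% (n = 1018), and above it 82.0 and 83.8% (n = 7363). Counted over MEIS2 peaks, replicate 1 therefore overlapped HAND2 more than replicate 2 did on either side of that split. Counted over HAND2 peaks at their own lowest background, the order was the other way. Of HAND2 replicate 1 peaks there (n = 4288), 17.8% overlapped MEIS2 replicate 1 and 32.2% MEIS2 replicate 2, and of HAND2 replicate 2 peaks (n = 2151), 20.6 and 29.7% did. Above it, under 30 IgG fragments, the shares were 24.1 and 13.3% for HAND2 replicate 1 and 21.5 and 10.9% for HAND2 replicate 2.

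Sites on which the MEIS2 libraries coincided were nearly all HAND2 sites. Of the 2311 MEIS2 regions, made in the same way, 1988 (86%, 84.5 to 87.4%) held both HAND2 libraries, 180 HAND2 replicate 1 only, 28 HAND2 replicate 2 only and 115 (4.98%) neither. The 1988 regions with both HAND2 libraries stood at a median of 7.75 and 8.91% from the top of the HAND2 lists. The 115 regions without HAND2 ranked lower than these in MEIS2 replicate 1, at a median of 49.1% from the top against 22.1%, and about level in MEIS2 replicate 2, at 49.3 against 47.9%. Their median pile-up was 11 and 13 fragments.

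The strongest shared regions are described one by one, each with its fold and counting interval in HAND2 replicates 1 and 2 and MEIS2 replicates 1 and 2. They were ordered by the worst of their ranks over the lists that had a peak there, and named by the protein-coding gene they overlap or, failing that, the gene with the nearest end. A region said to lie near a gene can be far from it: distances ran from 7870 bp at UTP15 to 433872 bp at ZMIZ1. The name does not show that a region acts on that gene. Folds of different lists are set side by side for the record, and only their ranks can be compared. The first lay within FER1L6, a gene of the ferlin family of membrane proteins, on chromosome 8. Its folds were 112 (99.9 to 126), 65.7 (56.6 to 75.7), 48.7 (38.4 to 61.1) and 39.5 (31.2 to 49.3), and it ranked within the top 0.242% of every list. The second lay 255061 bp from TRIQK, also on chromosome 8. Its folds were 161 (148 to 175), 136 (124 to 149), 60.3 (50 to 72.0) and 38.4 (31.1 to 47.0), from pile-ups of 542, 480, 119 and 94 fragments over a background of 2.71 to 4 IgG fragments. It had the best HAND2 ranks of the named regions and stood within the top 0.270% of both MEIS2 lists.

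The third region lay 7870 bp from UTP15, which encodes a ribosomal RNA processing factor, at chr5:73591250-73592220. Its folds were 99.2, 78.0, 35.5 and 34.2, and the summits of HAND2 and MEIS2 replicate 1 lay close together while that of MEIS2 replicate 2 stood apart, at the end of a summit range of 219 bp. The fourth, within SLC39A11, a zinc transporter gene, at chr17:73042397-73043979, had folds of 52.7, 38.7, 57.0 and 33.0, so that its rank was better in MEIS2 replicate 1 (0.0782%) than in HAND2 (0.432 and 0.605%). Near ETAA1, an activator of the replication stress response, the region at chr2:67561067-67562033 had folds of 68.7, 37.7, 48.1 and 55.5. It had the best MEIS2 replicate 2 rank of the named regions (0.0324%), and its 4 summits fell within 27 bp.

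The remaining shared regions lay near ACSL3, a fatty acyl-CoA synthetase gene, near RPRD1B, whose product binds the tail of RNA polymerase II, and within SLIT3, a secreted axon guidance ligand gene. Near RPRD1B (chr20:38107835-38111059) the folds were 78.6, 41.3, 57.4 and 30.5. Within SLIT3 (chr5:168764317-168767032) they were 38.7, 35.4, 38.4 and 28.2, with all 4 lists ranking the region between 0.255 and 0.998% from the top. ACSL3 (chr2:222993768-222994611) had folds of 62.7, 49.5, 41.3 and 30.9. None of the 8 regions had a HAND2 or MEIS2 summit at a gene end.

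Strong HAND2 regions with MEIS2 replicate 1 only lay near CBLN1, a secreted synaptic organiser gene, COL22A1, a collagen gene, RYBP, a Polycomb subunit gene, CTNNA1, the gene of an adherens junction catenin, and DRD2, a dopamine receptor gene, and within PLXNA4, a semaphorin receptor gene. The CBLN1 region lay 216310 bp and the RYBP region 117501 bp from the gene. In the COL22A1 region, on chromosome 8 and 125146 bp from the gene, folds were 132 and 88.4 for HAND2 and 29.6 for MEIS2 replicate 1, with the 3 summits within 6 bp. Near RYBP (chr3:72255236-72257096) they were 38.6, 47.4 and 29.4, with all 3 summits at the same base. The DRD2 region (chr11:113574030-113575248, 98632 bp from the gene) had folds of 29.0, 24.2 and 28.2, and its summits lay within 4 bp. No MEIS2 replicate 2 peak was called in these regions, although in MEIS2 replicate 1 they ranked between 0.505 and 1.28% from the top.

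Strong HAND2 regions with MEIS2 replicate 2 only lay near AKR1E2, an aldo-keto reductase gene, and ANKRD55, and within PITPNB, a phospholipid transfer gene, SCRG1, GPAM, which encodes the first enzyme of glycerolipid synthesis, and CREB3L2, the gene of a membrane-bound bZIP factor. The ANKRD55 region (chr5:56350250-56351103, 116920 bp from the gene) had folds of 27.9 and 41.9 for HAND2 and 37.4 (29.0 to 47.5) for MEIS2 replicate 2, with the 3 summits within 18 bp. GPAM (chr10:112226426-112227982) was the one named region at a gene end, with HAND2 summits 67 bp and the MEIS2 summit 16 bp from it, and folds of 25.3, 33.4 and 17.3. In the AKR1E2, PITPNB and SCRG1 regions the summits spread over 440, 557 and 977 bp, with the MEIS2 replicate 2 summit away from those of HAND2.

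Some of the strongest HAND2 regions had no MEIS2 peak. A second region within SLC39A11 (chr17:72773749-72777052) had HAND2 folds of 96.7 (86 to 108) and 91.7 (81.8 to 102), above those of the shared region in the same gene. In MEIS2 no peak was called there. Regions within SRGAP3, a gene of the Slit-Robo pathway, 433872 bp from ZMIZ1, a coactivator gene, and near SHOX2, a homeobox gene, had folds of 61.1 to 81.9 over the HAND2 libraries. The strongest MEIS2 regions with no HAND2 peak lay near SNX10, NUDT12, IL6ST, the shared receptor subunit of interleukin 6 family cytokines, and ZNF703. The IL6ST region (chr5:56011928-56014490) had folds of 10.9 (7.04 to 16.3) in MEIS2 replicate 1 and 24.9 (18.7 to 32.6) in MEIS2 replicate 2, with summits 1867 bp apart. Near NUDT12 (chr5:103486661-103487654) the folds were 11.2 and 14.7, and the summits lay 36 bp apart. These 4 regions ranked between 9.87 and 13.8% from the top in MEIS2 replicate 1 and between 1.2 and 6.50% in MEIS2 replicate 2.

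**Figure D5:**
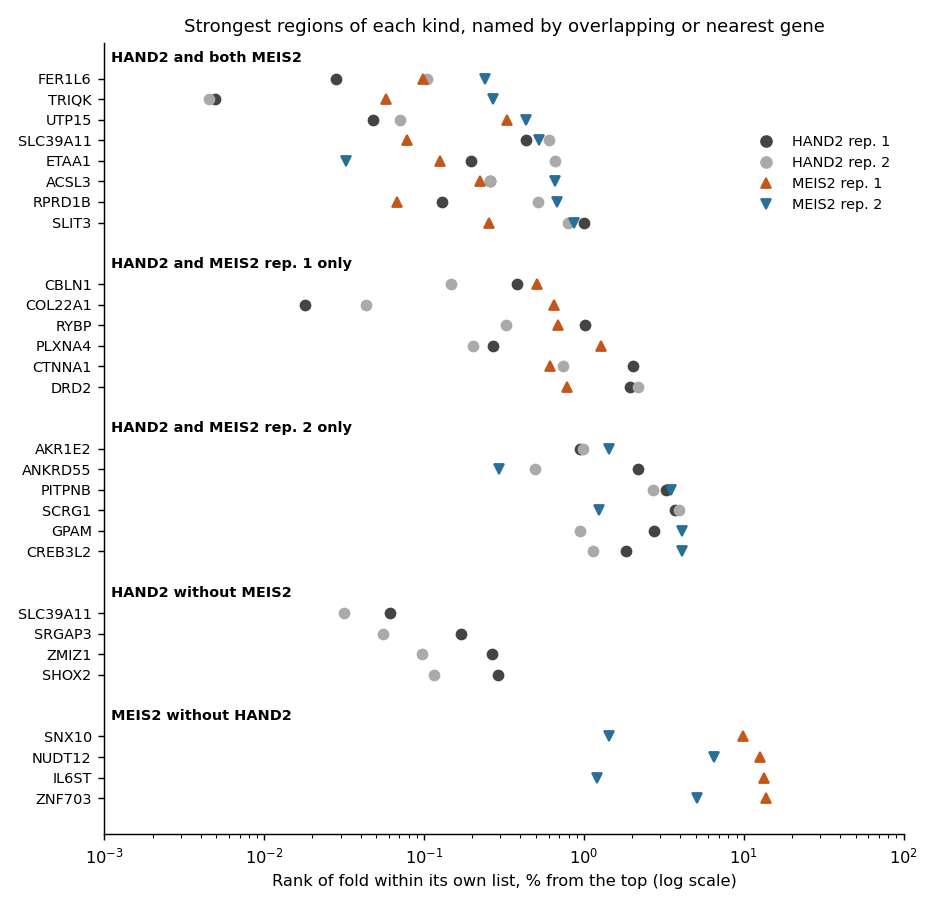
Rank of fold within its own list (x axis, % from the top, log scale) of each named region in the libraries that have a peak there; circles are HAND2 and triangles are MEIS2. The 8 shared regions stand within the top 0.998% of all 4 lists, while the MEIS2 regions without HAND2 stand at 9.87 to 13.8% in MEIS2 replicate 1 and 1.2 to 6.50% in MEIS2 replicate 2.

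Gene ends were then read gene by gene: each of 19974 protein-coding genes counted as occupied where a peak overlapped the 1 kb to each side of either end, and its fold is that of the strongest such peak. A wide peak can reach an end from a summit farther off, and of the 126 peaks listed at the named genes 48 had a summit more than 1 kb from both ends. HAND2 replicates 1 and 2 occupied 20.6 and 27.8% of genes, MEIS2 replicate 1 11.5% and MEIS2 replicate 2 2.18%. Both HAND2 libraries occupied 18.8%, both with MEIS2 replicate 1 7.55%, both with MEIS2 replicate 2 1.14%, and all 4 libraries 0.796% (159 genes). The ends of a gene are not told apart, so libraries that occupy a gene can do so at different ends, and the lists described next were chosen with earlier results of these data known.

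Adrenergic regulators, the factors of the sympathetic identity, were occupied by both HAND2 libraries in 19 of 25 genes, by MEIS2 replicate 1 in 15 and by MEIS2 replicate 2 in 4. These shares were 76.0, 60 and 16%, beside 18.8, 11.5 and 2.18% of all genes. The 4 genes with all libraries were ISL1, MEIS1, MEIS2 and HAND2. At the gene HAND2 itself the HAND2 libraries gave 3.85 (2.26 to 6.19) and 5.01 (3.47 to 7.01) as folds, beside 20.1 (15.2 to 26.1) in MEIS2 replicate 1 and 3.74 (2.02 to 6.45) in MEIS2 replicate 2. The end of MEIS2 had folds of 4.88 (3.80 to 6.17), 6.44 (5.25 to 7.81), 17.8 (14.4 to 21.8) and 2.97 (1.72 to 4.85). Both genes thus ranked high in MEIS2 replicate 1 only, at 2.24 and 3.32% from the top, against 30.4 to 70.5% in the HAND2 lists and 96.4 and 99.0% in MEIS2 replicate 2, whose peak at MEIS2 lies at the other end of the gene. The −log10 q of those MEIS2 replicate 2 peaks was 2.88 at HAND2 and 2.23 at MEIS2, and at a minimum of 5 the list kept 2 genes with MEIS2 replicate 2 in place of 4. ISL1, a LIM homeodomain factor, had folds of 6.98, 6.29, 6.88 and 4.96, all at the same end. Within 50 kb of either end of the gene HAND2 there were 15 and 11 HAND2 peaks, 12 in MEIS2 replicate 1 and 10 in MEIS2 replicate 2.

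Genes of the mesenchymal state, the alternative identity of neuroblastoma cells, were occupied by both HAND2 libraries in 8 of 30, by MEIS2 replicate 1 in 8 and by MEIS2 replicate 2 in 5, the last count being 2 at a −log10 q of at least 5. These shares were 26.7, 26.7 and 16.7%, so HAND2 stood nearer to its 18.8% of all genes than in the adrenergic list. Among all genes MEIS2 replicates 1 and 2 stood at 11.5 and 2.18%. SNAI2, ID3 and VIM had all 4 libraries. SNAI2, a repressor of epithelial genes, had folds of 8.66, 9.49, 5.88 and 4.86, and ID3, an inhibitor of bHLH factors, 7.84, 9.75, 4.03 and 4.31. VIM, the intermediate filament vimentin, had folds of 6.38, 7.92, 4.64 and 6.23, with the MEIS2 replicate 2 peak at the other end of the gene.

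Genes of catecholamine synthesis, transport and storage, the products of sympathetic cells, were occupied by both HAND2 libraries in 10 of 20, by MEIS2 replicate 1 in 6 and by MEIS2 replicate 2 in 1, which was not among those with HAND2 in both, or 50, 30 and 5% of the list. Among all genes these shares were 18.8, 11.5 and 2.18%. SLC6A2, the noradrenaline transporter, had HAND2 folds of 77.1 (73.1 to 81.2) and 27.2 (25.3 to 29.3), against 4.4 (3.10 to 6.07) in MEIS2 replicate 1, and no MEIS2 replicate 2 peak. DBH, which makes noradrenaline from dopamine, had folds of 13.3, 14.5 and 4.65, and the summits of HAND2 replicate 2 and MEIS2 replicate 1 fell on the same base. The wide HAND2 replicate 1 peak at SLC6A2, ranked 0.136% from the top, has its summit 3491 bp outside the gene, while HAND2 replicate 2, with its summit at the end, ranked 1.63%. At DBH the HAND2 ranks were 10.1 and 6.58%, and MEIS2 replicate 1 ranked 75.3% at SLC6A2 and 69.7% at DBH. The background was high there, at 19.0 to 29.0 IgG fragments.

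Neurotrophic and cytokine receptor genes were occupied by both HAND2 libraries in 8 of 20, by MEIS2 replicate 1 in 3 (40 and 15%) and by MEIS2 replicate 2 in 0, where 2.18% of all genes would stand for less than 1 gene. Among all genes, HAND2 in both stood at 18.8% and MEIS2 replicate 1 at 11.5%. GFRA3, a co-receptor of the GDNF family, had folds of 15.4, 15.9 and 12.4, and NGFR, the low-affinity neurotrophin receptor, 10.6, 13.5 and 5.60. RET, the receptor kinase of the GDNF family, had HAND2 folds of 5 and 5.44 at its end and no MEIS2 peak there. Genes of neuronal structure were occupied by both HAND2 libraries in 14 of 26, by MEIS2 replicate 1 in 11 and by MEIS2 replicate 2 in 3. These shares were 53.8, 42.3 and 11.5%, beside 18.8, 11.5 and 2.18% of all genes. SNAP25, a synaptic vesicle fusion protein, had folds of 4.30 and 3.80 in HAND2 and 9.70 and 10.8 in MEIS2, at ranks of 62.4, 65.7, 17.9 and 15.2% from the top, although the MEIS2 replicate 2 peak lay at the other end.

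The families of the factors themselves were counted next. Beside them stand all genes, at 18.8% for HAND2 in both, 11.5% for MEIS2 replicate 1 and 2.18% for MEIS2 replicate 2. Among bHLH and ID genes, 9 of 34 had both HAND2 libraries, 13 had MEIS2 replicate 1 and 5 MEIS2 replicate 2 (26.5, 38.2 and 14.7%). ID2 had all 4, with folds of 5.60, 7.91, 10.3 and 4.43, and HES1, a Notch target, had HAND2 folds of 13.9 and 11.6 and 8.34 in MEIS2 replicate 1. Among TALE genes, 5 of 18 had both HAND2 libraries, 5 MEIS2 replicate 1 and 2 MEIS2 replicate 2 (27.8, 27.8 and 11.1%), the latter being MEIS1 and MEIS2. The HAND2 share of either family thus stood nearer to that of all genes than in the adrenergic list. MEIS1 had folds of 6.15, 6.05, 6.16 and 5.11. At ID2, HES1 and MEIS1 the strongest HAND2 replicate 1 peak lay at the other end of the gene than those of the other libraries. Of 39 HOX genes, whose products partner TALE factors, 5 had both HAND2 libraries, 6 MEIS2 replicate 1 and 0 MEIS2 replicate 2, with the first 2 shares, 12.8 and 15.4%, near those of all genes; HOXC4, HOXC5 and HOXC6 shared 1 peak, with folds of 5.91, 6.26 and 7.23.

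Retinoic acid signalling, a differentiation pathway of neuroblastoma cells, had both HAND2 libraries at 8 of 19 genes, MEIS2 replicate 1 at 3 and MEIS2 replicate 2 at 1. These shares were 42.1, 15.8 and 5.26%, beside 18.8, 11.5 and 2.18% of all genes. The gene with MEIS2 replicate 2 was RARA, a retinoic acid receptor, with folds of 30.2 (27.1 to 33.5), 30 (27.8 to 32.2), 6.07 (3.68 to 9.52) and 13.8 (11.1 to 17.1). Its neighbour CDC6, which loads the replicative helicase, had folds of 27.1, 14.0, 14.3 and 21.4 at its upper end (chr17:40287879-40304657), where the HAND2 replicate 1 peak reaches towards RARA (chr17:40309180-40357643). The summit that HAND2 replicate 1 gave to CDC6 and that HAND2 replicate 2 gave to RARA was the same base, so these genes are not separate observations. STRA6, the retinol transporter, had HAND2 folds of 14.4 and 19.1 at its end with no MEIS2 peak there, while 12 peaks of MEIS2 replicate 1 and 4 of MEIS2 replicate 2 lay within 50 kb.

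Cell cycle and replication genes had both HAND2 libraries at 11 of 35, MEIS2 replicate 1 at 10 and MEIS2 replicate 2 at 2. These shares were 31.4, 28.6 and 5.71%, beside 18.8, 11.5 and 2.18% of all genes. TOP2A, the topoisomerase of dividing cells, had folds of 5.85, 5.01, 15.9 (11.6 to 21.2) and 5.23, and ranked at 5.14% from the top in MEIS2 replicate 1 against 40.9, 45.1 and 71.5% in the other lists. Liver genes had both HAND2 libraries at 2 of 20 and blood cell genes at 1 of 21, with 0 for both MEIS2 libraries, and of 392 olfactory receptor genes 3 had both HAND2 libraries, 0 MEIS2 replicate 1 and 1 MEIS2 replicate 2. Beside 18.8% of all genes with HAND2 in both, these shares were 10, 4.76 and 0.765%. In lists of about 20 genes the 2.18% of MEIS2 replicate 2 stands for less than 1 gene, so its counts of 0 there cannot be read.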

How the data were processed

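CUT&Tag peak lists of 4 libraries were used, grouped by the antibody and replicate number in the labels. The submitters' processing notes name bcl2fastq 2.17, Bowtie2 without a version, MACS3 3.0.0a6 and build hg38. Their options and any duplicate removal: not given in the sources used here. Per the file headers and values, each deposited list gives an integer score (not used), the authors' fold ratio at the summit, and the authors' −log10 p and −log10 q values. Peaks on other chromosomes than 1 to 22 and X (0, 0, 3 and 5) were dropped.

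The pile-up and background of each peak were recovered as the whole pile-up matching the deposited fold and −log10 p within 5e-05, which succeeded for 100% of peaks and was tested on simulated data. Background divided by the value of 1 IgG fragment gave IgG fragments. Overlap meant at least 1 bp. For each MEIS2 peak the overlapping HAND2 peak of highest fold was used for distance and rank. Gene ends came from RefSeq (GRCh38.p14), which gives no exons or UTRs here; 15812 of 19974 protein-coding genes matched a promoter window. No genome was used, so peak sequences were not analysed here. Python 3.11.15, numpy 2.4.6, pandas 2.3.3, scipy 1.17.1 and matplotlib 3.10.9 were used.

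Named were the 8 best-ranked regions with all 4 libraries, 6 with MEIS2 replicate 1 only, 6 with replicate 2 only, 4 with HAND2 alone and 4 with MEIS2 alone, and up to 4 members of each gene list by number of libraries. Printed were up to 6 promoters outside chromosome 8, by MEIS2 libraries and then rank. The comparison, the members and the lists were chosen with earlier results of these data known. Alternatives were a reciprocal overlap of 50%, a −log10 q of at least 5, the 9000 peaks of highest fold, leaving out peaks of 30 or more IgG fragments, nearest summits, ranks by −log10 q, windows of 500 bp and leaving out each library.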

Additional observations from a re-analysis of the deposited data

How the results depend on the processing

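No overlap share, distance or correlation changed sign or the order of the MEIS2 libraries under any alternative run; the split by background, which is not one of them, turned the order over HAND2 peaks. MEIS2 replicate 1 peaks overlapped HAND2 replicates 1 and 2 at 48.9 and 49.8% with a reciprocal overlap of 50%, 46.5 and 46.4% among the 9000 peaks of highest fold, and 79.8 and 79.6% where peaks of at least 30 IgG fragments were left out; MEIS2 replicate 2 peaks did so at 16.5 and 12%, and 23.6 and 18.3%, under the first and second of these. HAND2 replicates 1 and 2 overlapped MEIS2 replicate 1 at 15.4 and 14.3% (reciprocal), 23.8 and 21.7% (−log10 q of at least 5), 44.0 and 44.3% (9000 peaks), and 22.7 and 20.7% (low IgG), and MEIS2 replicate 2 at 7.54 and 4.95%, 14.3 and 10.6%, 23.8 and 18.6%, and 16.1 and 12.1%. Median distances to MEIS2 replicate 1 were 60 and 67 bp at a −log10 q of at least 5, and rho was 0.41 and 0.38 when ranked by −log10 q. With 9000 peaks a list, HAND2 regions with both, MEIS2 replicate 1 only, replicate 2 only and no MEIS2 numbered 1012, 2412, 518 and 2816, since fewer peaks entered. With either HAND2 library left out the counts were 2066 to 2221, 5306 to 5588, 1859 to 2515 and 20368 to 23971, since a region then needs 1 HAND2 peak. Regions with any MEIS2 peak numbered 8699, and without MEIS2 replicate 1 or 2, chosen after seeing the data, 3716 to 7023. Genes with all libraries numbered 159, with 101 at a −log10 q of at least 5 and 171 to 1509 when a library was left out, the highest without MEIS2 replicate 2. Within 500 bp of gene ends the shares were 4.07, 15.9, 1.97 and 9.39%. At a −log10 q of at least 5, members with MEIS2 replicate 2 numbered 2 of the adrenergic, mesenchymal and bHLH lists each and 1 of the TALE list, those with MEIS2 replicate 1 numbered 7 of the neuronal list, and those with HAND2 in both 3 of HOX, 1 of liver and 0 of blood cell genes. Unless stated, the cause was not tested. No paired analysis was possible because the results come from no test and the labels do not tie same-numbered HAND2 and MEIS2 libraries. The low pile-up of MEIS2 peaks limits what an absent peak shows, and −log10 q of 2.00 to 2.02 was the lowest deposited.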

Other observations

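Overlap varied between chromosomes. MEIS2 replicate 1 met HAND2 replicates 1 and 2 least often on chromosome 21 (53.1 and 59.2%, n = 98). MEIS2 replicate 2 met both most often on chromosome 19 (55.1 and 55.1%, n = 78), which held 0.562% of its list against 4.08% of the MEIS2 replicate 1 list. Chromosome 17 likewise held 2.90% of MEIS2 replicate 2 peaks and 7.19% of MEIS2 replicate 1 peaks. Copy number of this line was not used.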
